A study of Rattus norvegicus with 12 samples.

Results

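Enpp1 encodes ectonucleotide pyrophosphatase/phosphodiesterase 1, and its messenger was followed here with a single probe, A_43_P12841, across 12 single-colour Agilent arrays of rat thoracic aorta. The probe was chosen by its name and by its accession, NM_053535, which the RefSeq gene table for the assembly GRCr8 assigns to Enpp1 (gene ID 85496, also known as Npps and Pc1). It is 1 of the 38321 probes on each array that are not controls, and the 1 probe of them that is assigned to Enpp1. It was printed as 10 spots on each array. The array design names the older build rn4, so no coordinates are given.

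Enpp1 is a membrane enzyme that faces the outside of the cell and splits extracellular ATP into AMP and pyrophosphate. Pyrophosphate binds to nascent calcium phosphate crystals and stops their growth, and loss of the enzyme causes severe calcification of arteries in children and mice. The same protein has also been described as an inhibitor of insulin receptor signalling, and it degrades the immune messenger cGAMP. In the vessel wall the pyrophosphate it makes is removed again by tissue-nonspecific alkaline phosphatase.

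All rats were male. WKY, the Wistar-Kyoto rat, is the normotensive counterpart of the spontaneously hypertensive rat (SHR). SHR-C were SHRs given drinking water by gavage, as were the WKY rats. SHR-Bh were SHRs given a high dose of BSJY, a preparation of 8 herbal granules, and SHR-Ca were SHRs given captopril, an inhibitor of angiotensin-converting enzyme. Dosing was once a day for 16 weeks from an age of 12 weeks, whereas 32 weeks is the age recorded for the samples, a difference that is not resolved here. The study started with 10 WKY rats and 40 SHRs in 4 groups, and its low-dose BSJY group is not analysed here. Each of the 4 groups used here had 3 arrays. Whether each array stands for its own animal is not in the labels, so p-values cover only the spread between these samples, which may be technical, and their number limits the precision of every value. The labels also state that the aortas of both strains were irradiated, with no dose.

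The arrays of the strains differed as a whole, and this bears on every comparison with WKY. The 75th percentile of intensity, to which each array was scaled, ranged from 182.0 to 384.8 in WKY and from 109.8 to 190.2 in SHR. Between 74.0% and 87.9% of probes were well above background on WKY arrays and between 51.2% and 68.6% on SHR arrays. Per the scan times in the file headers, the 3 WKY arrays were scanned together and apart from every SHR array, so strain and scan session cannot be told apart. Among the SHR arrays, the second principal component set SHR-Bh 2, SHR-Bh 3 and SHR-Ca 1 apart from the other 6 (9.44% of the variance). None of the 35 marker genes listed for smooth muscle, endothelium, fibroblasts, fat, blood, leukocytes, nerve and skeletal muscle had a named probe, so the tissue label could not be checked against its markers. In such bulk tissue, fewer cells of a type and less RNA per cell cannot be told apart.

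Enpp1 was measured with little technical spread. The probe was well above background at all 10 spots on every array, with a median spot signal between 11.8 and 64.2 times the local background. On the log2 scale the SD among the spots of 1 array was 0.025 to 0.072, with a median of 0.039. The SD between the 3 arrays of a group was 0.15 to 0.43. One spot, on WKY 3, was marked as an outlier by the scanner software and left out. The spots of 1 array share its RNA and labelling, so they measure the precision of that array and not of the group.

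Before arrays were scaled, Enpp1 overlapped between the strains. Its mean processed intensity was 180.4 on WKY 1, 431.3 on WKY 2 and 644.1 on WKY 3. The SHR-C arrays gave 612.8, 469.9 and 563.6, all inside that range. The SHR-Bh arrays gave 375.5, 949.2 and 827.4, and the SHR-Ca arrays 505.1, 1004.4 and 408.0. WKY 1 was the dimmest of the 12 for Enpp1, and 6 of the 9 SHR arrays were dimmer than WKY 3.

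Relative to the rest of its own array, Enpp1 stood higher on every SHR array than on any WKY array. The level used below is log2 of the intensity over the array's 75th percentile. It was -0.012 on WKY 1, 0.32 on WKY 2 and 0.74 on WKY 3. On SHR-C 1, 2 and 3 it was 1.69, 1.62 and 1.90. On SHR-Bh 1, 2 and 3 it was 1.77, 2.37 and 2.47, and on SHR-Ca 1, 2 and 3 it was 1.90, 2.45 and 1.61. The lowest SHR array lay 0.87 above the highest WKY array. As a rank, Enpp1 was brighter than 74.9% to 80.5% of the probes on WKY arrays and than 84.5% to 87.9% of those on SHR arrays.

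**Figure D1:**
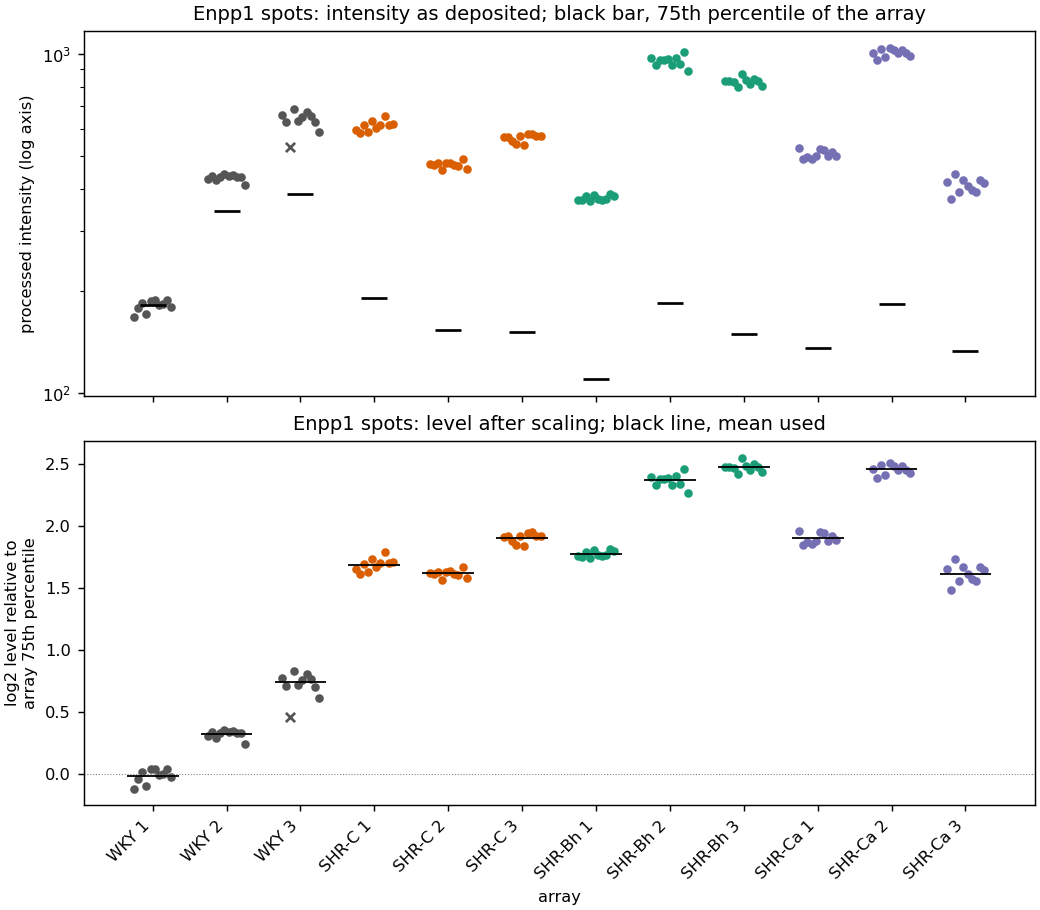
Each point is 1 of the 10 Enpp1 spots on an array, in colour by group; the upper panel gives the deposited processed intensity on a log axis with the array's 75th percentile as a black bar, and the lower panel gives the log2 level relative to that percentile with the mean used as a black line. The cross marks the outlier spot on WKY 3; intensities overlap between strains, while the scaled SHR levels (1.61 to 2.47) all lie above the WKY levels (-0.012 to 0.74).

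The groups ran, from low to high, WKY at 0.35 ± 0.38, SHR-C at 1.74 ± 0.15, SHR-Ca at 1.99 ± 0.43 and SHR-Bh at 2.20 ± 0.38 (log2 level, SD, n = 3). The step from WKY to SHR-C was larger than the spread between arrays. The step from SHR-C to SHR-Ca was larger than the SD of SHR-C and smaller than that of SHR-Ca. The step from SHR-Ca to SHR-Bh was smaller than the SD of either group.

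The first question was whether the strains differ without treatment. Enpp1 rose in SHR-C by 1.38 on the log2 scale (SE 0.30, 95% interval 0.73 to 2.04, limma adjusted p = 0.0019), which is 2.61-fold with an interval of 1.66-fold to 4.10-fold. It was higher on 3 of 3 SHR-C arrays than on any WKY array. This call is not rare on these arrays. Of 29618 probes tested, 61.7% passed the same threshold, 21.9% in the same direction as Enpp1, and in 26.9% all SHR-C arrays lay above all WKY arrays. Calls in the upward direction were 35.5% of all calls here, and between 2.37% (median of the probes with 10 spots) and 60.1% (array median) under the other scales. The change of Enpp1 was larger than that of 86.1% of the tested probes, whose median change was -0.42.

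The treated SHRs were set against WKY in the same fit, and these comparisons share the 3 WKY arrays. Enpp1 rose by 1.85 in SHR-Bh (SE 0.30, interval 1.20 to 2.50, limma adjusted p = 0.00022), or 3.61-fold. It rose by 1.64 in SHR-Ca (SE 0.30, interval 0.99 to 2.29, adjusted p = 0.00052), or 3.11-fold. The share of tested probes that passed upward was 24.4% for SHR-Bh and 23.5% for SHR-Ca, of 67.2% and 66.4% that passed in either direction. All arrays of the treated group lay above all WKY arrays for 27.7% of probes in SHR-Bh and 25.2% in SHR-Ca, Enpp1 among them. The mean of the 3 SHR groups stood 1.62 above WKY (SE 0.24, limma adjusted p = 1e-04), where 71.2% of probes passed, 26.2% upward, and for 20.4% every SHR array lay above every WKY array. With no scaling between arrays none of these calls held (adjusted p = 0.19 for SHR-Bh, 0.29 for SHR-Ca and 0.17 for the mean). With the mean of the other probes of 10 spots as the scale SHR-Bh passed (0.89, adjusted p = 0.031), and SHR-Ca (0.54, adjusted p = 0.16) and the mean (0.56, adjusted p = 0.078) did not. With the median of those tested the differences turned to -0.16, -0.45 and -0.37, and none passed. An exact two-sided permutation test of the difference of the mean, on the 75th percentile scale, over the 220 ways to pick 3 of 12 arrays gave p = 0.0091, the smallest it can give. With 3 arrays against 3, each strain comparison gave the smallest exact two-sided p of 0.10 (0.20 after Benjamini-Hochberg adjustment over the 6 pairs of groups).

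The second question was whether BSJY at the high dose altered Enpp1 in the hypertensive strain, and here it did not pass the test. SHR-Bh stood 0.47 above SHR-C (SE 0.30, interval -0.18 to 1.12, limma adjusted p = 0.57), so the interval runs from 0.88-fold to 2.17-fold. SHR-Bh 2 and SHR-Bh 3 lay above all SHR-C arrays, while SHR-Bh 1, at 1.77, lay among them. In this comparison 0.0945% of probes passed, all of them lower in SHR-Bh. With SHR-Bh 2, SHR-Bh 3 and SHR-Ca 1 left out, a setting chosen after the data were seen, the difference was 0.038. That setting leaves SHR-Bh 1 alone in its group. It drops the arrays on which the group was higher, so the smaller difference follows from their removal. No scan session held both groups, and a fit to the SHR arrays with a term for session gave a difference of 0.92 (SE 0.64, adjusted p = 1.0). The term for session leaves only an indirect comparison, through the SHR-Ca arrays that shared a session with SHR-C or with SHR-Bh. SHR-C 1 and SHR-Bh 2 were alone in their sessions and add nothing to it. With arrays weighted by their estimated quality the difference was 0.62 (SE 0.27, limma adjusted p = 0.21).

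For captopril, Enpp1 did not pass against untreated SHRs either. The difference was 0.25 (SE 0.30, interval -0.40 to 0.91, limma adjusted p = 0.75), an interval of 0.758-fold to 1.87-fold. It rested on SHR-Ca 2: without that array it was 0.021. The levels on SHR-Ca 3 (1.61) and SHR-C 2 (1.62) lay closer together than the spot SD of 0.072 on SHR-Ca 3. The level on SHR-Ca 1 was equal to that on SHR-C 3 at this rounding. Within the session that held 2 arrays of each group the difference was 0.42 (SE 0.39, adjusted p = 0.95). In this comparison 0.28% of probes passed, all lower in SHR-Ca.

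The treatments did not differ from each other for Enpp1 beyond their spread. SHR-Bh stood 0.21 above SHR-Ca (SE 0.30, interval -0.44 to 0.87, limma adjusted p = 0.87), and the groups overlapped. Within the session that held SHR-Bh 1, SHR-Bh 3 and SHR-Ca 3 the difference was 0.51, with SHR-Ca 3 alone in its group. With arrays weighted, over all sessions, the difference was 0.65 (SE 0.24, limma adjusted p = 0.092). With the 3 arrays that lay apart left out, the difference turned to -0.26. That setting was chosen after the data were seen, and it leaves SHR-Bh 1, the lowest of its group, alone. None of the 29618 probes passed in limma here (0%), and 2126 (7.18%) had an unadjusted p under 0.05. These intervals leave room for a difference of up to 0.87 on the log2 scale between the treatments, so a shared level was not shown. The exact two-sided permutation p was 0.20 for SHR-Bh against SHR-C, 0.70 for SHR-Ca against SHR-C and 0.60 for SHR-Bh against SHR-Ca (0.30, 0.70 and 0.70 after adjustment over the 6 pairs).

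**Figure D2:**
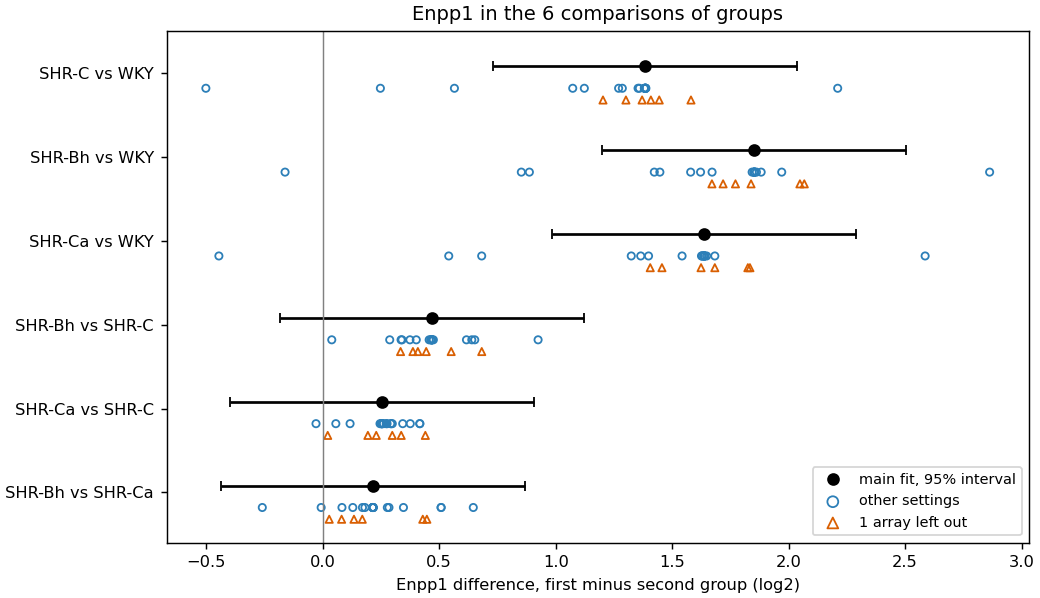
Enpp1 difference in log2 units for the 6 pairs of groups; black points with bars are the fitted difference and its 95% interval, open circles are other settings and triangles leave out 1 array. The 3 strain comparisons lie at 1.38, 1.85 and 1.64 with intervals above 0, and the 3 comparisons among SHR groups have intervals that include 0; the circles at the left of the strain comparisons come from scaling on the other probes with 10 spots and from no scaling.

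Among the 9 SHR arrays Enpp1 took 3 high values, 2.37 on SHR-Bh 2, 2.45 on SHR-Ca 2 and 2.47 on SHR-Bh 3, and 6 values between 1.61 and 1.90. By scan session, SHR-Bh 2 was alone, SHR-Bh 3 shared its session with SHR-Bh 1 and SHR-Ca 3, and SHR-Ca 2 shared its session with SHR-C 2, SHR-C 3 and SHR-Ca 1. They coincided in part with the arrays that lay apart on the second principal component, which included SHR-Bh 2 and SHR-Bh 3 and also SHR-Ca 1, where Enpp1 was 1.90. SHR-Ca 2, SHR-Bh 2 and SHR-Bh 3 also had the highest Enpp1 intensities of the 12 before scaling. What sets them apart was not tested.

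The size of the strain difference depended on what Enpp1 was measured against. Set against 10 commonly used reference genes (Actb, B2m, Gusb, Hprt1, Hsp90ab1, Ldha, Pgk1, Rpl13a, Rplp1 and Sdha, each with 30 spots), Enpp1 rose in SHR-C by 1.29 (SE 0.27, limma adjusted p = 0.0017). Their mean log2 level overlapped between strains, from 5.87 to 6.00 in WKY and from 5.86 to 6.28 in SHR. The 10 genes were not all level between strains: 3 rose and 0 fell in SHR-C (changes of -0.49 to 0.83), and 3 rose and 2 fell in SHR-Ca. Of all tested probes, 61.7% passed in SHR-C (21.9% upward) and 66.4% in SHR-Ca (23.5% upward). With quantile normalization the rise was 1.27 and with normexp background correction 1.12, both past the threshold. With each array's median as the scale it was 2.21, and with the 75th percentile of probes above background on all arrays 1.07.

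Set against the other 49 probes that, like Enpp1, had 10 spots, the call was lost. Of the 41 tested, 24 rose in SHR-C, 1 fell and 16 did not pass. Of all tested probes 61.7% passed, 21.9% upward, and of those above background on all 12 arrays 30.5% passed upward. The median change of the 41 was 1.06, against -0.42 over everything tested. The change of Enpp1 exceeded that median by 0.33, and 16 of the 41 had a larger one. With the mean of the 49 as the scale, Enpp1 differed by 0.25 between SHR-C and WKY (SE 0.33, limma adjusted p = 0.52). With the median of the 41 as the scale the difference turned to -0.50 (SE 0.27, adjusted p = 0.10), because that median, set by the middle probe of each array, was between -0.45 and 0.092 in WKY and between 1.67 and 2.12 in SHR. With no scaling between arrays the difference was 0.57 (SE 0.55, adjusted p = 0.40). These 3 scales were chosen after the data were seen. A set of 49 probes is small, and which scale reflects equal amounts of aortic RNA was not tested.

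**Figure D3:**
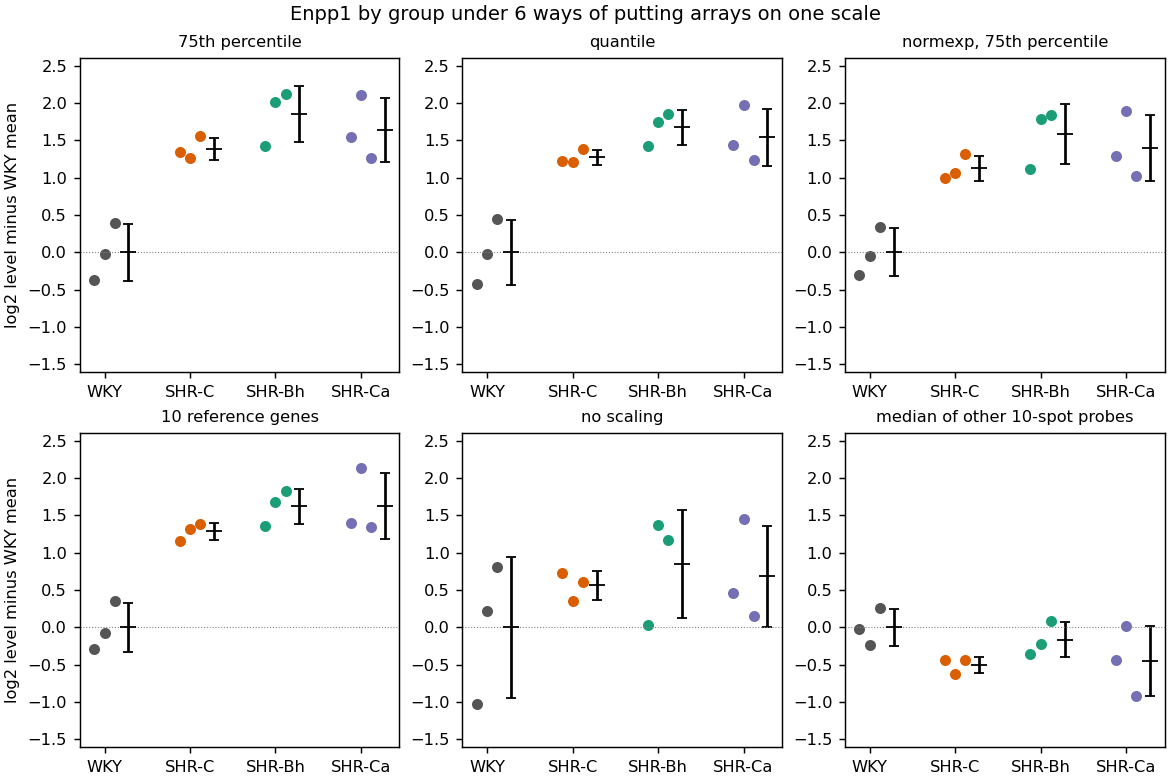
Enpp1 level on each array minus the WKY mean, in log2 units, by group under 6 ways of scaling; points are arrays, and the bar beside them is the mean with 1 SD (n = 3). The SHR groups lie above WKY with the 75th percentile, quantile, normexp and reference gene scales (SHR-C by 1.38, 1.27, 1.12 and 1.29). They overlap WKY with no scaling, and lie at or below it against the median of the other tested probes with 10 spots (SHR-C by -0.50).

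The change of Enpp1 between WKY and SHR-C was also set against the median change of all tested probes, a difference that no constant added to an array can move. It was 1.81 as reported, 1.36 with quantile normalization, 1.18 with the strict filter (probes above background on all 12 arrays) and 0.94 with normexp. Over the 17797 probes that cleared background on each of the 12 arrays, where the median change was 0.20 and 30.5% rose, Enpp1 had a larger change than 82.5%.

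**Figure D4:**
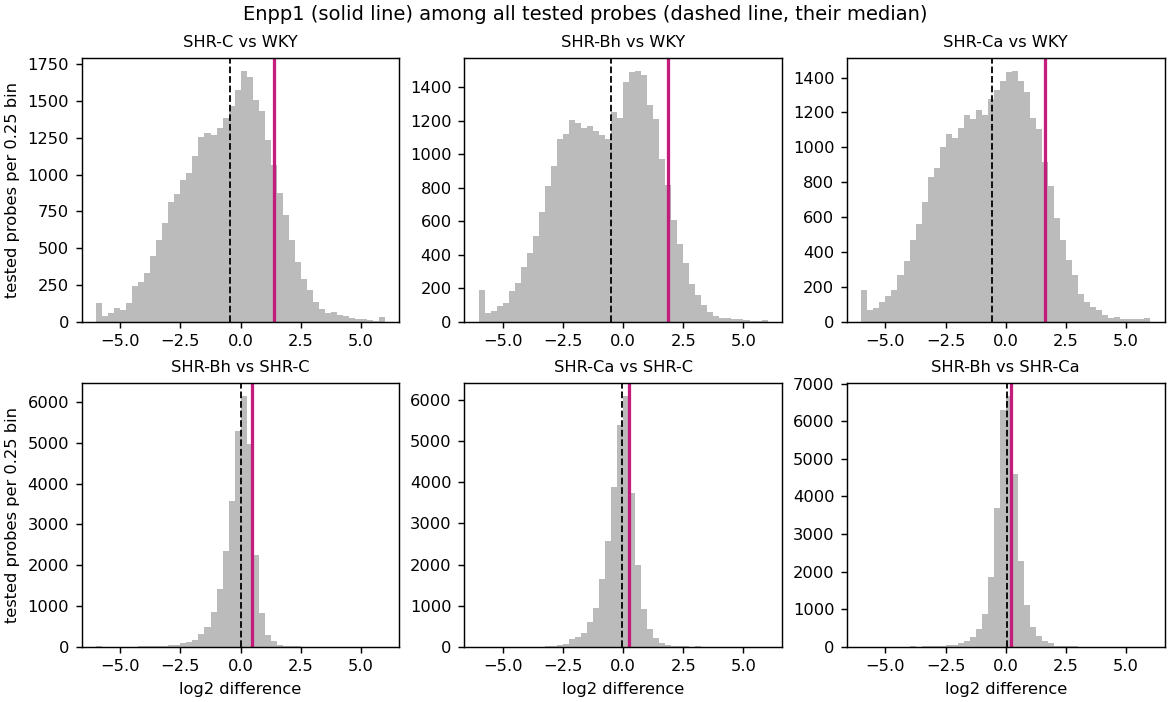
Number of tested probes by log2 difference in bins of 0.25 for the 6 pairs of groups, with differences beyond 6 in the end bins; the solid line is Enpp1 and the dashed line the median of all probes. Against WKY, Enpp1 (1.38, 1.85 and 1.64) lies in the upper part of a broad distribution with a median below 0, and among SHR groups (0.47, 0.25 and 0.21) inside a narrow one.

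Other genes of pyrophosphate and vessel calcification could not be set beside it. Of the 32 genes listed for pyrophosphate supply, its breakdown, phosphate transport, adenosine signalling, calcification inhibitors, the bone-type programme, insulin receptor signalling and cGAMP sensing, 1 had a probe with a gene name here, and that was Enpp1. Ankh and Abcc6, which carry pyrophosphate and ATP out of cells, and Alpl, the alkaline phosphatase, were among the other 31. Of all probes, 39 could be given a gene name, for 38 genes, and most of the rest carry only an identifier of the array design.

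The named genes with the pattern nearest to that of Enpp1 over the 12 arrays were Nat1, Ndfip2 and Ndfip1. Likeness was the root mean square difference of log2 levels after each probe was centred on its own mean, a measure that also favours changes of similar size. Enpp1 itself varied by 0.777 on that scale, and the median probe differed from it by 1.21. Nat1, an arylamine N-acetyltransferase, differed by 0.286, and stood at -0.15 in WKY, with SHR-C at 0.73, SHR-Bh at 1.14 and SHR-Ca at 1.27. Ndfip2 and Ndfip1, membrane adaptors that bring Nedd4-family ubiquitin ligases to their targets, differed by 0.297 and 0.309. They ranked 615 and 785 of 29513 probes, and Nat1 ranked 515, so these are the nearest of the 32 other named probes and not the nearest of all.

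The 2 nearest probes of all have no gene name here. ASRNV20024437 differed from Enpp1 by 0.096. Its level was 0.61, 0.90 and 1.33 on WKY 1 to 3, and 2.19, 2.09 and 2.33 on the SHR-C arrays. On the SHR-Bh arrays it was 2.13, 2.93 and 2.81 and on the SHR-Ca arrays 2.28, 2.87 and 1.98, so that it was high on the same 3 SHR arrays as Enpp1. ASRNV20005902 differed by 0.135. These probes were picked for their nearness on the same arrays and with the same scaling, so their levels are a description and were not tested.

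**Figure D5:**
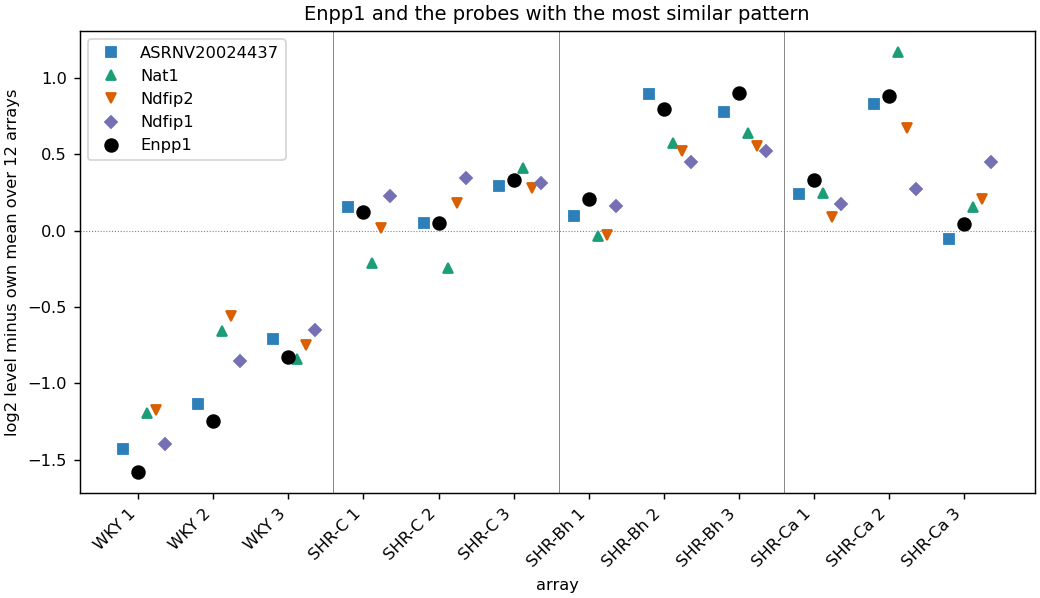
Log2 level minus the probe's own mean over the 12 arrays for Enpp1 (black circles), the nearest unnamed probe ASRNV20024437 (blue squares) and the named genes Nat1, Ndfip2 and Ndfip1; grey lines part the groups and points of an array are offset sideways. Enpp1 and ASRNV20024437 are both low on the WKY arrays and high on SHR-Bh 2, SHR-Bh 3 and SHR-Ca 2.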

How the data were processed

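Total RNA of 12 thoracic aorta samples was labelled with Cy3. The authors deposited the scanner output of every array, with spot intensities that Agilent Feature Extraction 11.0.1.1 had background-subtracted and spatially detrended within the array, per the file headers. No step between arrays is recorded there. Flags for background, saturation and outliers come from the same software.

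Control and outlier spots were left out, log2 intensities were averaged over the spots of a probe (no pseudocount), and the 75th percentile of each array was subtracted. A probe counted as well above background where the larger part, or an equal part, of its used spots were, and was tested if it was so on all arrays of at least 1 group (29618 probes, 77.3%). The 4 groups were fitted in limma 3.58.1 (R 4.3.3) with 1 mean each, and p-values received Benjamini-Hochberg adjustment within a comparison, threshold 0.05. The fit was also run on simulated data with independent noise. Those data held no shift between arrays or scan sessions, so they do not test the scaling. Exact permutation tests used scipy 1.17.1. The files hold no mean spot signal, so normexp (offset 50) used the median signal. Genes were named by accession from RefSeq (GRCr8).

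Enpp1, the gene lists and most settings were chosen with earlier results of these data known. Named genes were those nearest to Enpp1 in pattern, 3 with a name and 2 without, and the reference genes. Alternatives were other background, scaling, filter, spot and variance choices, only the compared groups, scan session or replicate number as a block, and each array left out. Added after the data were seen were 3 scales, the fits within 1 scan session, and the fit without SHR-Bh 2, SHR-Bh 3 and SHR-Ca 1. Replicate numbers were taken to name samples only. Deviations from the group mean had correlations of -0.55 to 0.48 between same-numbered arrays of different groups. Between differently numbered ones they were -0.40 to 0.53.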

Additional observations from a re-analysis of the deposited data

How the results depend on the processing

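For Enpp1 against WKY, the direction and the call held in SHR-C, SHR-Bh, SHR-Ca and their mean under all settings except 3 that were chosen after the data were seen. With no scaling between arrays the differences were 0.57, 0.85, 0.68 and 0.70 (limma adjusted p = 0.40, 0.19, 0.29 and 0.17), and the exact permutation p for the mean was 0.18. With the mean of the other 49 probes with 10 spots as the scale they were 0.25, 0.89, 0.54 and 0.56 (adjusted p = 0.52, 0.031, 0.16 and 0.078; exact permutation p for the mean 0.055), of which SHR-Bh kept its call. With the median of the tested ones among these they turned to -0.50, -0.16, -0.45 and -0.37 (adjusted p = 0.10, 0.58, 0.14 and 0.13; exact permutation p for the mean 0.091). Leaving out 1 array gave 1.20 to 1.58 for SHR-C, 1.67 to 2.07 for SHR-Bh, 1.41 to 1.83 for SHR-Ca and 1.44 to 1.82 for their mean, all past the threshold, with the highest adjusted p of 0.010.

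Among the SHR groups no setting brought Enpp1 past the threshold. Leaving out 1 array gave 0.33 to 0.68 for SHR-Bh against SHR-C, 0.021 to 0.44 for SHR-Ca against SHR-C and 0.028 to 0.45 for SHR-Bh against SHR-Ca. With array weights SHR-Bh differed from SHR-C by 0.62 (limma unadjusted p = 0.040, adjusted p = 0.21) and from SHR-Ca by 0.65 (unadjusted p = 0.021, adjusted p = 0.092). The direction turned for SHR-Ca against SHR-C with array weights (-0.029), and between SHR-Bh and SHR-Ca with the reference genes as the scale (-0.0071) and with SHR-Bh 2, SHR-Bh 3 and SHR-Ca 1 left out (-0.26). With the replicate block the changes were 1.38 for SHR-C (adjusted p = 0.0028) and 0.47 and 0.25 for the treatments against SHR-C (0.57 and 0.75), and no call of Enpp1 changed.

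The number of probes called moved by over 1.5 times with normexp (10792 for SHR-C, 11956 for SHR-Bh and 12253 for SHR-Ca against WKY, from 18281, 19900 and 19655) and with the strict filter, which tested fewer probes (9554, 10642 and 10453, and 11373 for the mean, from 21102). It ran from 0 to 263 for SHR-Bh against SHR-C (28 as reported), from 0 to 708 for SHR-Ca against SHR-C (83) and from 0 to 4101 for SHR-Bh against SHR-Ca (0), in each case highest with array weights. The share of calls that were higher in SHR-C was 35.5% as reported. It was 60.1% with median scaling, 57.6% with the strict filter, 57.3% with normexp, 47.7% with quantile normalization, 27.0% with the 75th percentile of probes above background on all arrays, 10.6% with no scaling, and 8.57% and 2.37% with the mean and median of the probes with 10 spots. The lowest ratio of Enpp1 signal to background was 11.8 (WKY 1).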

Other observations

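Over the 9 SHR arrays alone, the probe nearest to Enpp1 was ASRNV20006190, at a root mean square difference of 0.068, where Enpp1 itself varied by 0.336 and the median probe differed by 0.569. Its mean level was 2.78 in WKY against 2.87 in SHR-C, with SHR-Bh at 3.35 and SHR-Ca at 3.11, and its difference of 0.094 between SHR-C and WKY did not pass the test (limma adjusted p = 0.77). ASRNV20024437, the nearest over all 12 arrays, came next at 0.071. The nearest named genes were Hprt1, an enzyme of purine salvage, at 0.168, Ndfip2 at 0.170 and Cse1l, which returns importin alpha from the nucleus, at 0.180. Hprt1, Ndfip2 and Cse1l ranked 430, 458 and 602 of 29513 probes. They are the nearest of the 32 other named probes and not the nearest of all. Hprt1 was one of the 10 reference genes.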
